A study of Mus musculus with 4 samples.

Results

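The nuclear genes for the structural subunits of mitochondrial complexes I, III and IV and of ATP synthase were followed in mouse macrophages. They were taken by symbol: every gene with a probe whose symbol begins with Ndufa, Ndufb, Ndufc, Ndufs, Ndufv, Uqcr, Cox4i, Cox5, Cox6, Cox7, Cox8 or Atp5, leaving out the Ndufaf assembly factors. This gave 81 of the 32395 genes or accessions that have a probe, of which 36 belong to complex I, 8 to complex III, 20 to complex IV and 17 to ATP synthase, with 108 probes in all. Ndufa4 and its relative Ndufa4l2 were placed in complex IV, where the Ndufa4 protein is now known to sit. The cells were grown from bone marrow of 6-week-old male mice for 7 days with GM-CSF at 25 ng/ml, and were either left unstimulated (basal) or given Escherichia coli LPS at 100 ng/ml for 6 h. Wildtype cells were compared with cells lacking Cdk5r1, which encodes an activating subunit of the kinase Cdk5, and the labels give both genotypes the same strain name, B6.129S4-Cdk5r1tm1Lht/J. Each of the 4 two-colour arrays carried wildtype RNA in the Cy3 channel and knockout RNA in the Cy5 channel, with 2 arrays per condition labelled as biological replicates. The labels do not say how many animals each RNA came from. Dyes were never exchanged, so dye and genotype cannot be told apart in a knockout to wildtype ratio.

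The arrays were alike in the share of spots well above background, 68.3% to 71% in Cy3 and 62.1% to 65% in Cy5, with no saturated spot. The median foreground before correction was lower on the LPS arrays. It was 76 and 77.5 against 95 and 97.5 on the basal arrays in Cy3, and 116 and 118 against 145.5 and 139 in Cy5. The part of this in the LPS differences was not tested. Having 4 arrays in all limited the precision. Of the 81 genes, 78 passed the filter on dim probes (well above background in at least 1 channel on at least 2 of the 4 arrays). The 3 that did not were Cox7b2, Cox8b and Cox8c, isoforms known from testis, heart or muscle. The targeted gene Cdk5r1 was lower in the library labelled knockout on every array, with log2 ratios of -0.37 and -0.59 under basal conditions and -2.55 and -2.29 after LPS. In wildtype cells Cdk5r1 rose with LPS by 1.96 on the log2 scale (SE 0.217, limma adjusted p = 0.00332). Of the 10 macrophage markers listed, 9 had a probe and passed the filter, well above background on every array in both genotypes, while no probe was matched to Cd68. Of 10 markers of neutrophils and their precursors, 9 also had a probe and passed, and none was matched to Ly6g.

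Oxidative phosphorylation couples the transfer of electrons to the making of ATP. Complex I takes electrons from NADH, complex II from succinate, complex III passes them from ubiquinol to cytochrome c, and complex IV hands them to oxygen. The proton gradient that complexes I, III and IV build drives ATP synthase. A small number of the subunits are made inside the mitochondrion, and the rest, studied here, are transcribed in the nucleus and imported. Nuclear respiratory factor NRF1, the ETS factor GABP and YY1 are known to bind promoters of many of these genes. Macrophages given LPS are known to turn towards glycolysis and to use their respiratory chain differently, with complex I and complex II as sources of reactive oxygen.

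The promoters of the genes were read from RefSeq windows of 300 bases, 250 before and 50 after each annotated start (build GRCm38.p6), which matched 66 of the 81 genes with 71 windows. Both strands were searched for 4 strings: the palindromic NRF1 string, a looser form of it in which 1 of its middle bases is free, CCGGAAGT for GABP and other ETS factors, and AAGATGGC for YY1, where the strict NRF1 string is contained in the looser one. At least 1 of the strings stood in 40.8% of the members' windows and in 10.4% of all 32851 windows. For the looser NRF1 string the shares were 22.5% and 4.6%, for the strict one 7.04% and 0.971%, for AAGATGGC 14.1% and 2.75%, and for CCGGAAGT 7.04% and 3.89%. Of the windows of genes called lower after LPS in wildtype cells, 47.1% (16 of 34) held a string, against 37.1% (13 of 35) for the tested genes not called lower. String by string the order was mixed: the YY1 string stood in 7 of the 34 and 3 of the 35 and the looser NRF1 string in 9 and 7, but the strict NRF1 string and the ETS string each stood in 1 of the 34 and 4 of the 35. By complex the share was 44.1% for complex I, 60% for complex III (3 of 5 windows), 14.3% for complex IV (2 of 14) and 50% for ATP synthase. These are counts of letters and not of bound sites.

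Stretches from 5 genes are shown because they pair a string with the expression values given further on: Ndufs7, Ndufb4, Uqcr11 and Atp5c1 were lower after LPS, and Cox6a1, with matches of the same kind, was not called in either genotype. Each is written 5′ to 3′ on the strand of its gene, with the matching bases in capitals. The Ndufs7 site lies just after the annotated start (chr10:80249462-80249491, plus strand) and holds the YY1 string. The other stretches are the 250 bases before the start on the minus strand: Ndufb4 (chr16:37654369-37654618) with 3 NRF1-type stretches, Uqcr11 (chr10:80406822-80407071) with the ETS string, the 1 window of a called gene that holds it, Atp5c1 (chr2:10080433-10080682) with 1 NRF1-type stretch and Cox6a1 (chr5:115348959-115349208) with 2.
Ndufs7: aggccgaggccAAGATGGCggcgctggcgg
Ndufb4: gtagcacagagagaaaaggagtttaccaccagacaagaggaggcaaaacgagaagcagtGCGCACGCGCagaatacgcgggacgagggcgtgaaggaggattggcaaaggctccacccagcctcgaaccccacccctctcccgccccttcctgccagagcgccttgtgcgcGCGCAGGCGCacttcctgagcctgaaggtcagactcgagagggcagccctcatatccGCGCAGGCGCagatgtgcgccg
Uqcr11: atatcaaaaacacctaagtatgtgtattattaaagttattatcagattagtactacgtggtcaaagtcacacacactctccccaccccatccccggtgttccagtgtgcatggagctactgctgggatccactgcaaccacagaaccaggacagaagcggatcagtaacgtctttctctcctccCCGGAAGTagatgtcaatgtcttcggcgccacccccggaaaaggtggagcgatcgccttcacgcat
Atp5c1: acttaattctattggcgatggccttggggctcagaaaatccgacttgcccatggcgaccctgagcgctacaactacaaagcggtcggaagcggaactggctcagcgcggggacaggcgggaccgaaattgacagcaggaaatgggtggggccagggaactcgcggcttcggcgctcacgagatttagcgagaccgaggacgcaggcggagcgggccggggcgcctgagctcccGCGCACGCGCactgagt
Cox6a1: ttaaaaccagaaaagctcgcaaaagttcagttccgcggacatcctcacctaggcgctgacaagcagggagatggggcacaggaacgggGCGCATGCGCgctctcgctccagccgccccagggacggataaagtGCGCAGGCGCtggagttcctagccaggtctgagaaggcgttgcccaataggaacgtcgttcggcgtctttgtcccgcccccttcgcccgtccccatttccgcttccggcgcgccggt
The first capitals of Cox6a1 are the strict NRF1 string and its second the looser one, whereas those of Ndufb4 and Atp5c1 are the looser one only, read on either strand. These 5 examples were picked after their values were seen.

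After LPS, transcripts of many respiratory chain genes were lower in wildtype cells, most often those of complex I and least often those of complex IV. Signals were corrected for background and dye within each array and then brought to a common distribution of mean signal over arrays, here called the main scaling, and limma was fitted over all genes with a Benjamini-Hochberg adjusted p under 0.05 as the threshold. Of the 78 genes tested, 38 fell and 1 rose, against 22.7% lower and 18.2% higher among all 23570 genes. The members are much brighter, with a median log2 signal of 14.78 against 8.32 for all genes on wildtype basal replicate 1. They were not set against genes of like brightness. The median difference of LPS from basal was -0.38 on the log2 scale for the members and 0 for all genes, and 71 of 78 had a value below 0. Every LPS array lay below every basal array for 58 of the 78, against 38.1% of all genes, and above for 3, against 37%. In complex I, 28 of 36 fell (median -0.49), in complex III 4 of 8 (median -0.37) and in ATP synthase 6 of 17 (median -0.30), while in complex IV none of 17 fell and 1 rose (median -0.13). The number past the threshold hung on the arrays used: it was 8 and 6 without basal replicate 1 or 2, and 26 without either LPS replicate, though the median kept between -0.37 and -0.35. The direction of the whole set also hung on the scaling: with each array set to its 75th percentile the median of all genes moved to 0.37, the members' median was 0.12, and 17 members were higher and 4 lower. Relative to all genes the members then stood 0.24 lower, with 62 of 78 below the median of all genes, and complex I was the one complex with a median below 0 (-0.05, 35 of 36 genes below the median of all genes). Of the 38 genes called lower on the main scaling, 16 then had values above 0, up to 0.19, and none of these was called higher; 9 of them were in complex I, 3 in complex III and 4 in ATP synthase.

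**Figure D1:**
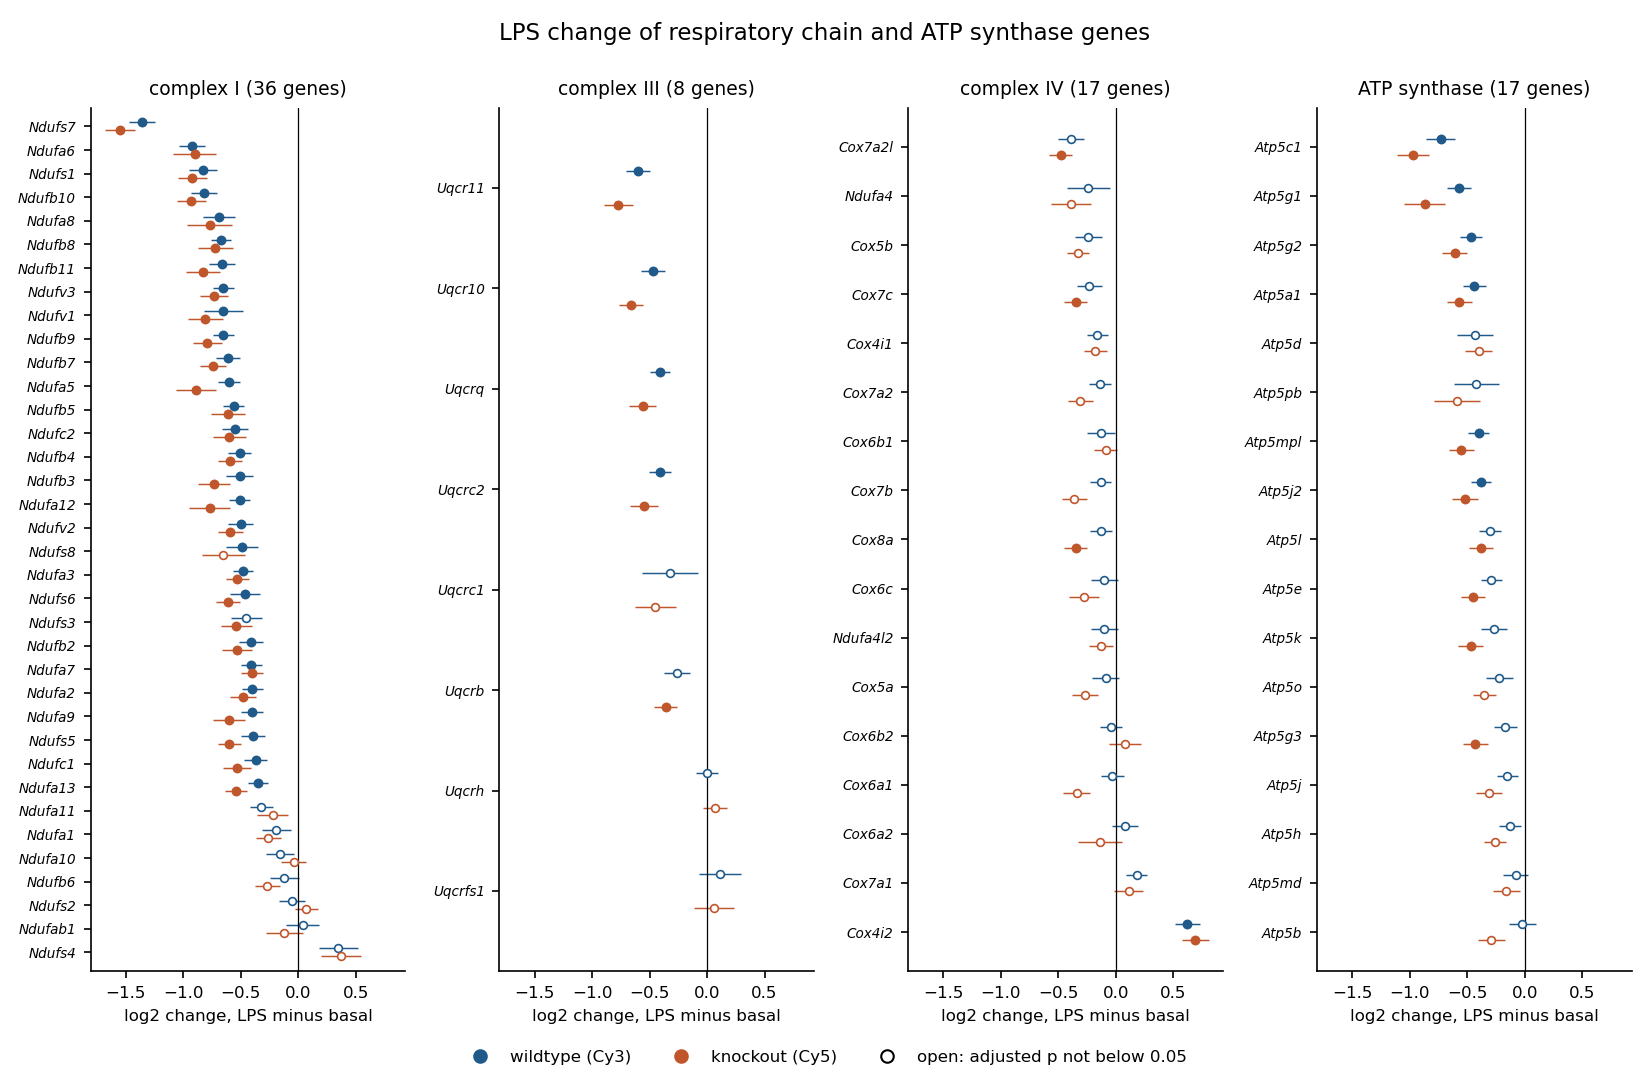
Each row is 1 gene (y axis), with a panel for each complex and the log2 difference of LPS from basal on the x axis. Wildtype and knockout cells have a point each. Filled points passed the threshold, bars are standard errors and the vertical line marks 0. On the main scaling shown, complex I lies lowest, with a median of -0.49 in wildtype and -0.60 in knockout cells, and complex IV nearest to 0, at -0.13 and -0.28.

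In complex I the greatest difference belonged to Ndufs7, an iron-sulfur subunit that lies next to the site where ubiquinone is reduced. Its log2 signal in wildtype cells was 14.42 and 14.48 without LPS and 13.19 and 12.99 with it, and in knockout cells 14.37 and 14.52 against 13.01 and 12.79. The conditions did not overlap in either genotype, and the change was -1.36 (SE 0.113, adjusted p = 0.00166) in wildtype and -1.55 (SE 0.131, adjusted p = 0.00228) in knockout cells, which is 2.56-fold and 2.92-fold lower. Ndufs7 passed the threshold under all 15 alternative settings in each genotype, the 75th percentile included (-0.92 and -1.13).

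Ndufs1, the large iron-sulfur subunit of the arm that takes up NADH, was at 13.23 and 13.48 under basal conditions and 12.51 and 12.53 after LPS in wildtype cells. In knockout cells it was at 13.23 and 13.32 against 12.24 and 12.47, again without overlap. It fell by 0.83 on the log2 scale in wildtype cells (SE 0.12, adjusted p = 0.00676) and by 0.92 in knockout cells. Its partner Ndufv1, the flavoprotein that binds NADH, went from 14.58 and 14.76 to 14.21 and 13.82 in wildtype cells, a fall of 0.65 (SE 0.166, adjusted p = 0.0345), and the LPS arrays were farther apart than the basal ones. Ndufv2 fell by 0.50 and Ndufv3 by 0.65, so that Ndufs1, Ndufv1, Ndufv2 and Ndufv3 were each called lower in both genotypes on the main scaling.

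Among the accessory subunits, Ndufa6, which anchors an acyl carrier protein to complex I, was at 13.99 and 13.94 under basal conditions and 13.15 and 12.94 after LPS in wildtype cells (-0.92, SE 0.113, adjusted p = 0.00434). In knockout cells its values were 13.82 and 13.84 against 13.16 and 12.69 (-0.90, SE 0.185, adjusted p = 0.0205), with the LPS arrays more widely spread. Ndufb10, a subunit of the membrane arm, went from 14.83 and 14.70 to 14.03 and 13.85 in wildtype cells (-0.82, SE 0.114, adjusted p = 0.0061) and from 14.66 and 14.74 to 13.89 and 13.65 in knockout cells. Its call was lost with the 75th percentile, where its wildtype value was -0.28. Of the same arm, Ndufb8 fell by 0.67, Ndufb11 by 0.66, Ndufb9 by 0.65 and Ndufb7 by 0.61, and in the wildtype cells the values of the B series ran from -0.82 for Ndufb10 to -0.12 for Ndufb6, which did not pass. Ndufb11 was measured by another, dim probe at -0.17, and Ndufb6 by another at -0.30. Ndufc2, a membrane arm subunit, fell by 0.55 in wildtype (SE 0.114, adjusted p = 0.0191) and by 0.60 in knockout cells. Ndufa8 fell by 0.69 (SE 0.137, adjusted p = 0.0168) in wildtype and by 0.77 in knockout cells.

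Complex I was not uniform. Ndufs4, an accessory subunit of the NADH-binding arm whose loss is known to destabilise that arm, was at 13.15 and 13.21 under basal conditions and 13.31 and 13.74 after LPS in wildtype cells. Its LPS arrays were both above its basal arrays, in knockout cells too (13.05 and 13.27 against 13.34 and 13.71), but the differences of 0.35 (SE 0.166, adjusted p = 0.167) and 0.37 (SE 0.172, adjusted p = 0.159) did not pass. Ndufab1, the acyl carrier protein that Ndufa6 binds, had differences of 0.04 (SE 0.144) and -0.12 (SE 0.164), with overlapping arrays. Members outside the naming rule were picked for mention after their values were seen. Ndufa1, Ndufa10, Ndufa11 and Ndufb6 were not called in either genotype, with wildtype values from -0.32 to -0.12. Ndufs3 and Ndufs8, core iron-sulfur or quinone-site subunits, stood at the threshold: Ndufs8 had -0.49 (adjusted p = 0.047) in wildtype and -0.65 (adjusted p = 0.0502) in knockout cells, and Ndufs3 had -0.45 (adjusted p = 0.0527) and -0.54 (adjusted p = 0.035).

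In complex III, 4 of 8 genes were called lower in wildtype cells: Uqcr10, Uqcr11, Uqcrq and Uqcrc2. Uqcr11, a small subunit at the edge of the complex, was at 15.05 and 14.92 under basal conditions and 14.46 and 14.32 after LPS in wildtype cells, and at 14.88 and 15.03 against 14.29 and 14.08 in knockout cells. It fell by 0.60 (SE 0.108, adjusted p = 0.0128) and by 0.77 (SE 0.128, adjusted p = 0.0116) with no overlap. Uqcr10 fell by 0.47 in wildtype cells, its other probes giving -0.45 and -0.51, and Uqcrq, which helps to form the ubiquinone pocket, fell by 0.41. With the 75th percentile their wildtype values turned to 0.12 each, below the 0.37 of all genes, and that of the core subunit Uqcrc2, which fell by 0.41 on the main scaling, became 0. Uqcrc1, the other core subunit, was at 12.28 and 12.59 against 12.42 and 11.80, so that 1 LPS array lay between its basal arrays (-0.32, SE 0.242, adjusted p = 0.347). Uqcrfs1, the Rieske protein that carries the electron towards cytochrome c, was at 14.38 and 14.37 against 14.25 and 14.73 (0.11, SE 0.182), and Uqcrh, the hinge protein that binds cytochrome c1, at 15.88 and 15.87 against 15.83 and 15.92 (0.00, SE 0.0937).

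In complex IV the gene that rose was Cox4i2, the lung and hypoxia isoform of the subunit that sets the response of the enzyme to ATP. Its log2 signal in wildtype cells was 8.06 and 7.89 under basal conditions and 8.65 and 8.55 after LPS, and in knockout cells 8.12 and 7.91 against 8.73 and 8.69. The arrays did not overlap, and it rose by 0.62 (SE 0.108, adjusted p = 0.0113), or 1.54-fold, in wildtype and by 0.69 (SE 0.118, adjusted p = 0.0126), or 1.62-fold, in knockout cells. The rise kept its direction on the 75th percentile (0.70 and 0.75), and the calls of both genotypes were lost without basal replicate 2. Its common counterpart Cox4i1 went from 16.28 and 16.26 to 16.14 and 16.08, lower on both LPS arrays by less than the test could call (-0.16, SE 0.0902, adjusted p = 0.233). Knockout cells gave -0.18 (SE 0.0987).

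On the main scaling the other isoform pairs of complex IV showed no called difference in wildtype cells. With the 75th percentile 9 of the 17 genes of the complex were higher in wildtype cells and none lower. Their median was then 0.36, beside 0.37 for all genes. The values that follow are from the main scaling. Cox6a1, the ubiquitous form, was at 17.35 and 17.33 against 17.23 and 17.38 (-0.03, SE 0.101), and Cox6a2, the heart and muscle form, at 7.66 and 7.86 against 7.81 and 7.88 (0.08, SE 0.113). Cox7a1, also a heart and muscle form, was higher on both LPS arrays (9.94 and 9.96 against 10.15 and 10.11) without passing (0.18, SE 0.0894, adjusted p = 0.18), while Cox7a2 gave -0.14 (SE 0.0945). Cox6b1 gave -0.13 (SE 0.12) and its testis form Cox6b2 -0.04 (SE 0.0947). Cox7b gave -0.13 and Cox8a -0.13, and Cox7a2l, which joins complex III to complex IV in supercomplexes, gave -0.39 (SE 0.114, adjusted p = 0.0501) with other probes at -0.43 and -0.65. Ndufa4 was at 13.54 and 13.15 against 13.26 and 12.95, its arrays overlapping (-0.24, SE 0.185, adjusted p = 0.357). Ndufa4l2, known as a hypoxia-induced gene, was close to background (6.51 and 6.74 against 6.53 and 6.53) and not well above it on either LPS array of the knockout cells, so no fold is given for it there.

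**Figure D2:**
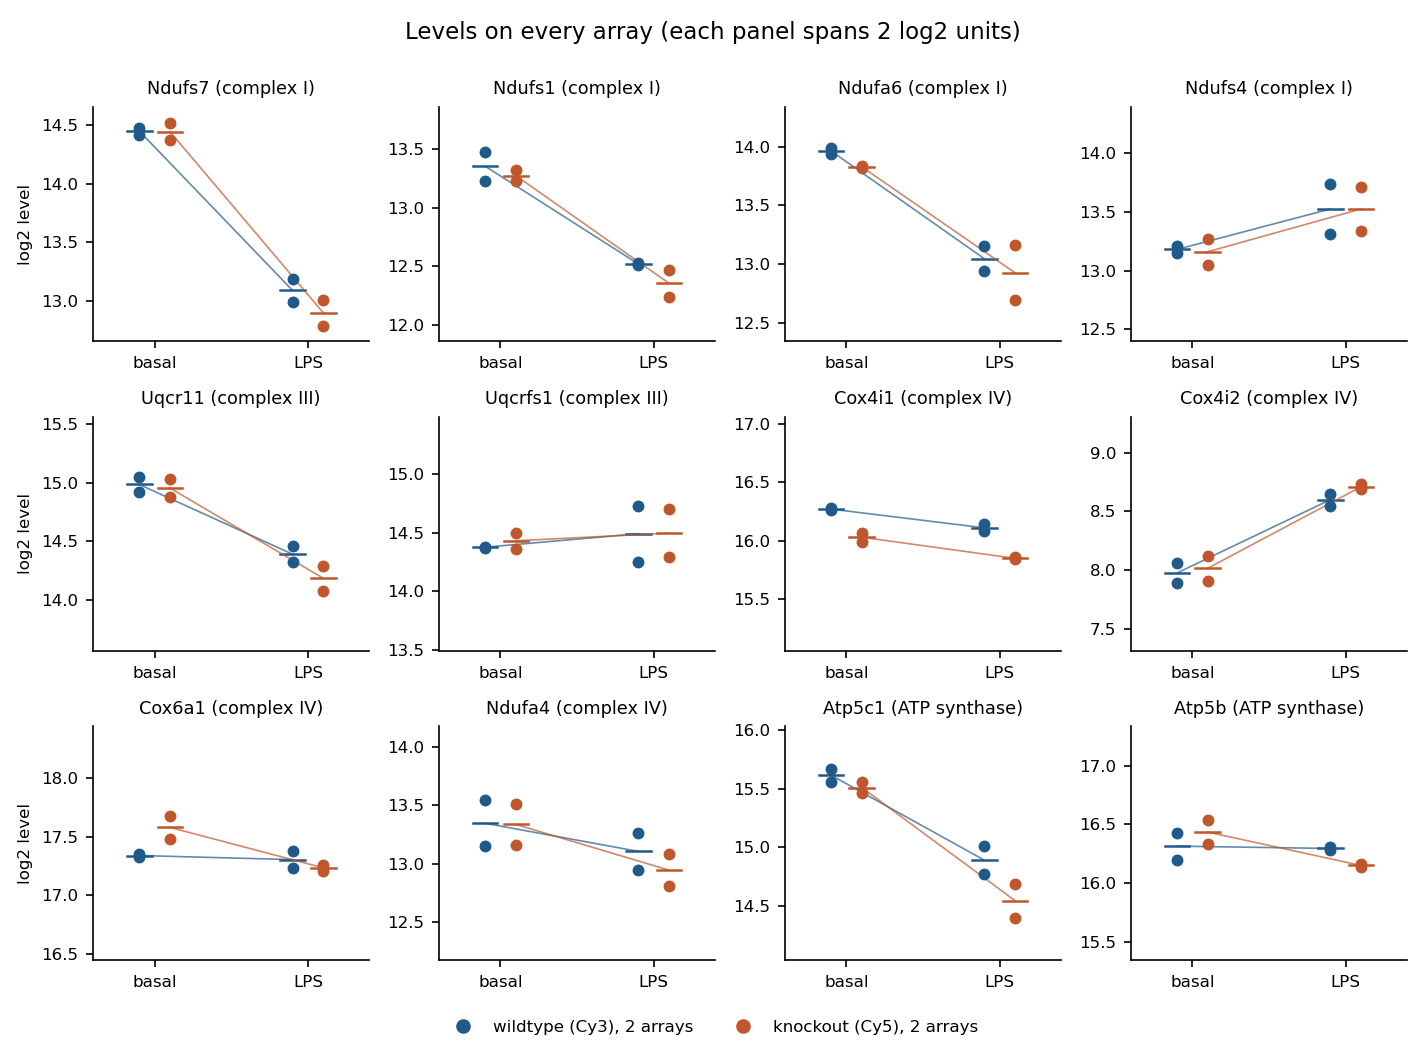
Normalised log2 signal (y axis, each panel spanning 2 log2 units) of 12 genes on the basal and LPS arrays (x axis), 1 point per array and channel. In wildtype cells Ndufs7 drops from 14.42 and 14.48 to 13.19 and 12.99 and Cox4i2 goes up from 8.06 and 7.89 to 8.65 and 8.55. Uqcrfs1, Cox6a1 and Atp5b overlap between the conditions in wildtype cells. In knockout cells the LPS arrays of Cox6a1 and Atp5b lie below the basal arrays.

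In ATP synthase, all 17 genes had a wildtype value below 0 and 6 fell on the main scaling, while with the 75th percentile the median was 0.19 and 5 of the 17 were higher. The clearest was Atp5c1, the gamma subunit that turns within the catalytic head. Its values in wildtype cells were 15.56 and 15.67 under basal conditions and 15.01 and 14.77 after LPS, and in knockout cells 15.46 and 15.56 against 14.69 and 14.40. It fell by 0.73 (SE 0.125, adjusted p = 0.0109), or 1.65-fold, and by 0.97 (SE 0.139, adjusted p = 0.00809), or 1.95-fold, and another probe gave -0.61 and -0.76. Atp5a1, the alpha subunit, went from 15.01 and 15.15 to 14.68 and 14.60 (-0.44, SE 0.101, adjusted p = 0.0263), whereas Atp5b, the beta subunit that pairs with it, was at 16.20 and 16.43 against 16.31 and 16.28 (-0.02, SE 0.116, adjusted p = 0.91), its arrays overlapping. The difference between those subunits was not tested.

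The 3 genes for subunit c of ATP synthase encode the same mature protein and had different values. Atp5g1 went from 15.78 and 15.87 to 15.32 and 15.19 (-0.57, SE 0.103, adjusted p = 0.0124) and Atp5g2 from 16.37 and 16.38 to 15.96 and 15.85 (-0.47, SE 0.0961, adjusted p = 0.0182), while Atp5g3 gave -0.17 (SE 0.0989, adjusted p = 0.238). In knockout cells all 3 were called, at -0.87, -0.61 and -0.43. The membrane subunits Atp5j2 and Atp5mpl fell by 0.38 and by 0.40 in wildtype cells. With the 75th percentile the wildtype values of Atp5a1, Atp5g2, Atp5j2 and Atp5mpl turned to 0.15, 0.07, 0.19 and 0.18, still under the 0.37 of all genes.

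In knockout cells after LPS the complexes stood in the same order of medians. Of 78 genes, 46 fell and 1 rose, against 21.9% lower and 19% higher among all genes, with a median of -0.48 against -0.01. Every LPS array lay below every basal array for 68 of the 78, against 39.1% of all genes. In complex I 28 of 36 fell (median -0.60), in complex III 5 of 8 (median -0.50), in ATP synthase 10 of 17 (median -0.45), and in complex IV 3 of 17, with 1 higher (median -0.28). The 3 of complex IV were Cox7a2l (-0.48, adjusted p = 0.0214), Cox7c (-0.35, adjusted p = 0.0452) and Cox8a (-0.35, adjusted p = 0.049), which on the 75th percentile turned to 0.05, 0.18 and 0.17, below the 0.35 of all genes. Other probes of Cox7c gave -0.20 and, in the case of a dim one, 0.27 in knockout cells. In both genotypes 37 genes fell, which is 97.4% of the wildtype calls and 80.4% of the knockout calls. Both genotypes were read on the same arrays, in different channels, and were normalised together. A deviation of an array can therefore enter the values of both. The shared calls and the shared order of medians are thus not independent results. The gene past the threshold in wildtype cells alone was Ndufs8, and 9 passed in knockout cells alone: Ndufs3, Uqcrb, Cox7a2l, Cox7c, Cox8a, Atp5e, Atp5g3, Atp5k and Atp5l. Uqcrb gave -0.36 in knockout cells with its brightest probe and -0.28 and 0.02 with others. Its call was lost with the mean over probes. A call in 1 genotype and not in the other does not show a difference between them. The knockout count was 5 and 1 without basal replicate 1 or 2 and 42 and 31 without LPS replicate 1 or 2. With the 75th percentile 6 genes were higher and 2 lower in knockout cells, and the members' median of -0.01 stood 0.36 below that of all genes.

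**Figure D3:**
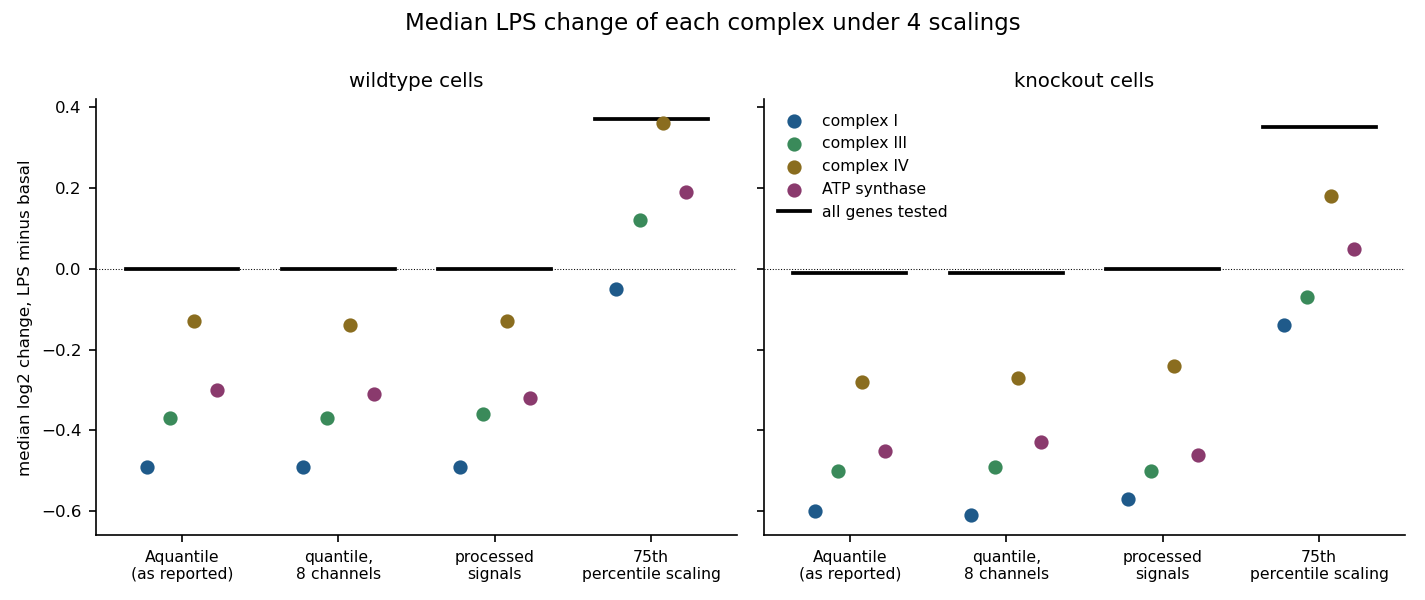
Median log2 difference of LPS from basal (y axis) of each complex under 4 scalings of the arrays (x axis), in wildtype and knockout cells, with a black line for the median of all genes tested. With the 75th percentile all medians shift up. In wildtype cells that of all genes goes from 0 on the main scaling to 0.37. Complex I goes from -0.49 to -0.05 and complex IV from -0.13 to 0.36.

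The partners of these subunits were taken from lists on the rest of the pathway. Complex II, which also works in the citric acid cycle, had 3 of its 4 genes lower in wildtype cells and none higher, where all genes have 22.7% lower and 18.2% higher. Its iron-sulfur subunit Sdhb was at 14.98 and 14.98 under basal conditions and 14.28 and 14.24 after LPS, a fall of 0.72 (SE 0.089, adjusted p = 0.00455), with another probe at -0.53. Cytochrome c moved the other way: Cycs, which also triggers apoptosis once released, went from 13.87 and 14.01 to 14.50 and 15.02, a rise of 0.82 (SE 0.198, adjusted p = 0.03), with 1 of 5 genes of its list higher and none lower. Knockout cells gave a rise of 0.62 for Cycs and a fall of 0.67 for Cyc1, the cytochrome of complex III (adjusted p = 0.0285).

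Assembly factors are not part of the finished complexes. Of 15 tested for complex I, 9 fell and none rose in wildtype cells, beside 22.7% lower and 18.2% higher among all genes. Their median was -0.73, beside the -0.49 of the subunits. Ecsit, an assembly factor that is also a signalling protein of the Toll-like receptor pathway, went from 11.48 and 11.60 to 9.20 and 9.82, a fall of 2.04 (SE 0.225, adjusted p = 0.00331), or 4.10-fold, and fell by 2.24 in knockout cells. For complex IV, 5 of 21 rose (23.8%) and 9 fell (42.9%), beside 18.2% and 22.7% of all genes. The related copper chaperones Sco1 and Sco2 went opposite ways. Sco1 went from 7.49 and 7.67 to 9.65 and 10.31 (2.40, SE 0.241, adjusted p = 0.00258, 5.29-fold higher, another probe 2.06), and Sco2 from 10.72 and 10.87 to 8.46 and 8.46 (-2.34, SE 0.101, adjusted p = 0.000502, 5.06-fold lower). Knockout cells gave 2.49 and -2.61. Counts from the short lists cannot be set apart from the shares of all genes: complex III had 1 of 5 factors higher and 2 lower, Uqcc3 falling by 1.38; the higher one, Bcs1l, which inserts the Rieske protein, gave 1.35 with its brightest probe and -1.54 with another, so its direction is not settled. For ATP synthase, 1 of 5 rose and 1 fell, the higher one being Tmem70, which helps to assemble the ring of subunit c (11.26 and 11.28 against 13.42 and 13.81, a rise of 2.35, SE 0.156, adjusted p = 0.00106).

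Among 20 regulators of mitochondrial biogenesis, 2 rose and 9 fell in wildtype cells, beside 18.2% higher and 22.7% lower among all genes. Pparg, a nuclear receptor of lipid metabolism, fell by 3.26 on the log2 scale (SE 0.251, adjusted p = 0.00141), or 9.60-fold, the largest fall of this list, and Ppara, its relative in fatty acid oxidation, rose by 0.86. The DNA-binding factors whose strings were searched in the promoters were not called by their brightest probes: Nrf1 gave 0.40 (adjusted p = 0.214), Gabpa 0.23 and Yy1 0.12. Another probe of Gabpa gave 0.81 (SE 0.10) in wildtype and 0.88 (SE 0.11) in knockout cells, so its value depends on the probe, and other probes of Nrf1 gave 0.35 and 0.19. Of the partner subunits of Gabpa, Gabpb1 rose by 0.78 and Gabpb2 fell by 0.44. In the list of paralogues and of carriers that dissipate or use the gradient, 1 of 11 rose and 8 fell. The higher one was AA467197, also named Nmes1, a paralogue of Ndufa4 whose protein is known to take its place in complex IV of inflamed cells. It went from 14.37 and 15.14 to 16.98 and 17.24 in wildtype cells, a rise of 2.36 (SE 0.278, adjusted p = 0.00396), or 5.14-fold, and rose by 2.47 in knockout cells. Over the 85 genes of these lists that are not members, 11 were higher and 41 lower in wildtype and 14 and 43 in knockout cells. Without basal replicate 1 the wildtype counts were 9 and 20 and without basal replicate 2 they were 9 and 19, and those of knockout cells 9 and 18 and then 10 and 15. With the 75th percentile 19 were higher and 27 lower in wildtype cells.

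Under basal conditions few members differed past the threshold between knockout and wildtype cells. Of 78, 1 was called, against 4.87% of all genes (1.49% lower and 3.37% higher), and the median log2 ratio of knockout to wildtype was -0.01. On both basal arrays 23 of the 78 were below 0, against 32% of all genes. The gene was Cox6b2, with ratios of -0.37 and -0.36 on the basal arrays (-0.36, SE 0.0755, adjusted p = 0.048) and -0.15 and -0.34 on the LPS arrays. Its call held in 3 of 13 alternative settings. An unadjusted p under the threshold was found for 8 of the 78 members and for 4657 of the 23570 genes. The level of all members rested on the scaling: with the arrays centred on the median in place of loess, 37 were higher and none lower, with a median of 0.36 against 0.09 for all genes. A dye effect cannot be told apart from genotype in these ratios.

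After LPS, 3 members were lower and 1 higher in knockout than in wildtype cells, against 5.23% lower and 7.17% higher among all genes. Atp5c1 had ratios of -0.10 and -0.11 on the basal and -0.32 and -0.37 on the LPS arrays (-0.35, SE 0.0663, adjusted p = 0.0214). Ndufb7, a subunit of the membrane arm, had -0.23 and -0.13, then -0.30 and -0.31 (-0.31, adjusted p = 0.0351), and Ndufa13, also known as a cell death regulator, -0.11 and -0.08, then -0.24 and -0.32 (-0.28, adjusted p = 0.044). With median centring these values turned to 0.08, 0.10 and 0.27, so the direction of all 3 depends on the scaling. Uqcrh was higher on every array, with 0.23 and 0.26 under basal conditions and 0.29 and 0.32 after LPS (0.31, adjusted p = 0.0313), and another probe gave 0.26 and 0.30 for the conditions. The median over the members was -0.13, 66 of 78 were below 0 against 50.2% of all genes, and 51 were below 0 on both LPS arrays against 34.7% of all genes, but with median centring the median was 0.24 and 21 members were higher. None of the 4 calls held without LPS replicate 1 or without LPS replicate 2, and without either basal replicate 6 members were called. Cox4i1 had ratios of -0.29, -0.19, -0.28 and -0.24 over the 4 arrays, below 0 on each and short of the threshold after LPS (adjusted p = 0.0573).

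**Figure D4:**
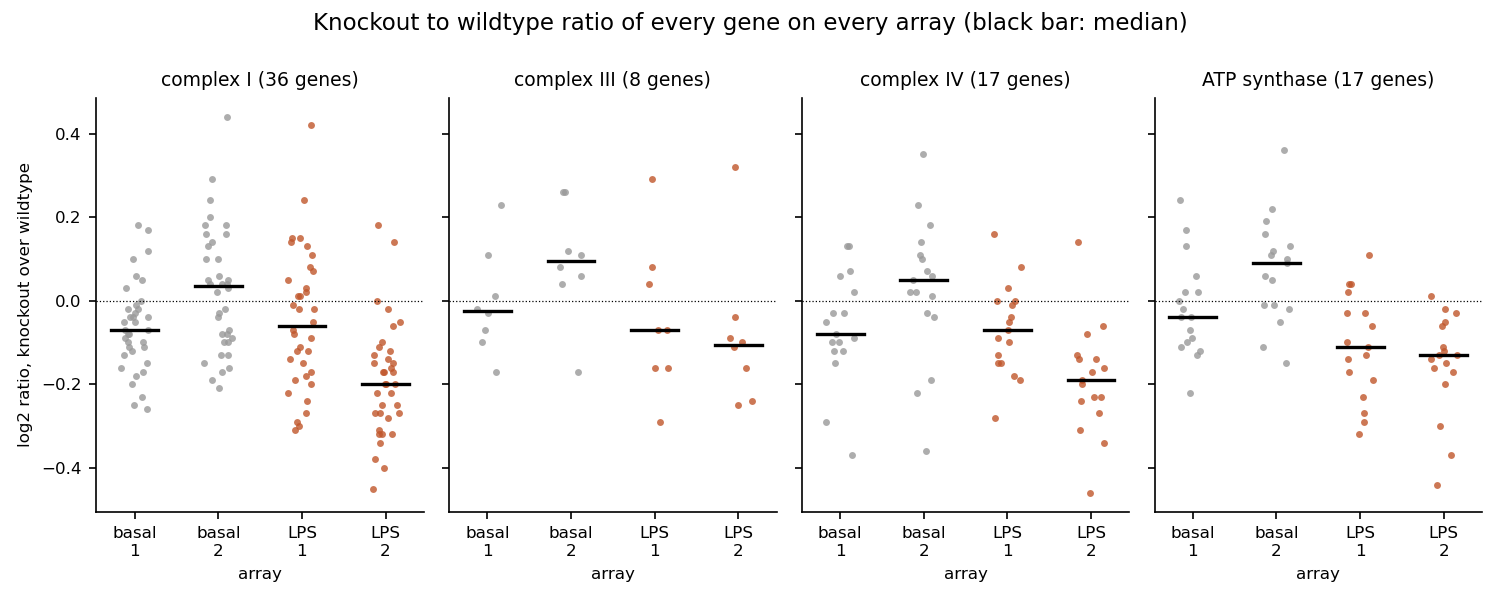
Log2 ratio of knockout to wildtype (y axis) of every member on each of the 4 arrays (x axis), by complex, with medians as lines. The median over all members is lowest for LPS replicate 2 (-0.165) and highest for basal replicate 2 (0.052).

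The difference between the knockout effects after LPS and under basal conditions is free of a constant dye effect. No member passed in limma, and among all genes 0.403% were called (0.28% higher and 0.123% lower). The unadjusted p was under the threshold for 6 of the 78 members and for 2447 of the 23570 genes. The members' values ran from -0.31 for Cox6a1 to 0.12 for Cox6b2 with a median of -0.13, and 67 of 78 were below 0 against 50.6% of all genes. The median was also below 0 with median centring (-0.14), and it was -0.17, -0.08, -0.18 and -0.07 without basal replicate 1, basal replicate 2, LPS replicate 1 and LPS replicate 2. Arrays of the same condition stood apart: the members' median ratio was -0.05 for basal replicate 1, 0.052 for basal replicate 2, -0.075 for LPS replicate 1 and -0.165 for LPS replicate 2. Cox6a1, with the lowest value, had 17.35 and 17.33 against 17.23 and 17.38 in wildtype and 17.48 and 17.68 against 17.26 and 17.21 in knockout cells, so that the knockout LPS arrays were below the knockout basal arrays while the wildtype arrays overlapped.

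Between the genotypes the pathway lists held about the share of calls that all genes did. Under basal conditions 3 of the 85 list genes were higher and none lower in knockout cells, beside 3.37% and 1.49% of all genes. Among them were Atpaf2, a chaperone of the alpha subunit of ATP synthase (0.54, adjusted p = 0.00782, another probe 0.72), and Tmem242, which is needed for the ring of subunit c (0.39, adjusted p = 0.0247, another probe 0.44). After LPS 4 were higher and 6 lower, beside 7.17% and 5.23% of all genes, with Tmem242 at 0.59 (adjusted p = 0.00341, another probe 0.68) and Polg2, a subunit of the mitochondrial DNA polymerase, at 1.01 (another, dim probe -0.09). The lower ones were Ttc19 (-0.62), Etfb (-0.57), Uqcc2 (-0.56), Ndufaf7 (-0.49), Esrra (-0.41) and Polg (-0.34), where other probes gave 0.03 and -0.17 for Ttc19 and -0.16 for Polg. Ppargc1a, a coactivator of mitochondrial biogenesis, was not well above background on any wildtype array, so its ratio is a bound: at least 1.23-fold higher in knockout cells under basal conditions and at least 2.41-fold after LPS, where the dim group was set to the lowest signal among probes well above background. Another probe of Ppargc1a gave a log2 ratio of 0.03 after LPS.

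Other measures moved with both comparisons. The summed linear signal of the 9 macrophage markers was 198000 and 195000 on the basal and 137000 and 132000 on the LPS arrays in wildtype cells, and 236000 and 193000 against 130000 and 103000 in knockout cells. This sum was led by Csf1r, the receptor of the growth factor M-CSF, which fell by 1.89 on the log2 scale in wildtype cells. Over the 9 markers 3 rose (Cd14, Mertk and Marco) and 3 fell (Csf1r, Itgam and Lyz2) in each genotype. Among all genes 18.2% rose and 22.7% fell in wildtype cells, and 19% and 21.9% in knockout cells. The sum of the 9 neutrophil and precursor markers was 103000 and 165000 against 289000 and 327000 in wildtype and 47500 and 77300 against 107000 and 110000 in knockout cells. In wildtype cells 8 of these 9 rose with LPS, beside 18.2% of all genes. Under each condition 6 of 9 were lower in knockout than in wildtype cells, beside 1.49% (basal) and 5.23% (LPS) of all genes. The sum of 5 eosinophil markers was 8200 and 10100 against 14600 and 20000 in wildtype cells. In knockout cells it was 5420 and 8120 against 6840 and 6860. The sum of 4 mast cell and basophil markers was 1890 and 1760 against 1420 and 1640 in wildtype cells. In knockout cells it was 3970 and 2370 against 2340 and 2490. Under each condition 2 of these 4 were called higher in knockout cells and none lower. For 2 erythroid markers the sum was 201 and 298 against 1880 and 3140 in wildtype cells, and 573 and 197 against 7340 and 12000 in knockout cells. The 7 dendritic cell markers summed to 456000 to 581000 in wildtype and 601000 to 743000 in knockout cells. After LPS 2 of the 7 were higher in knockout cells, the MHC class II genes H2-Ab1 (0.51) and Cd74 (0.59) that lead the sum. Itgax was lower (-0.59, adjusted p = 0.00429). Among all genes 7.17% were higher and 5.23% lower. The part of these shifts in the differences of the respiratory chain genes was not tested. In bulk RNA, fewer cells of a type and less RNA per cell cannot be told apart.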

How the data were processed

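RNA of 4 samples was hybridised to Agilent two-colour arrays. Per the file headers, the authors' scanner files give for each spot the foreground and background intensity in both channels, flags for spots above background or outlying (other), and a log10 ratio of Cy5 over Cy3. The headers name Feature Extraction 11.5.1.1, where the submitters' processing notes have 9.3.2.1. The authors' deposited value table holds log2 ratios whose constant per array is not stated; set against the scanner values, they run as Cy5 over Cy3.

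In R 4.3.3 with limma 3.58.1, median foreground intensity was corrected with normexp (offset 50), normalised by loess within arrays (control and outlier spots at weight 0) and by Aquantile between arrays. A probe was kept if well above background in either channel on 2 or more of the 4 arrays, and the brightest probe stood for a gene (23570 genes, 15989 of them with a symbol). Of 39429 probes, 27508 got a symbol through their accession (RefSeq, GRCm38.p6). LPS was tested within each channel on the log2 level, and genotype on the log2 ratio, each with lmFit and eBayes. Values in the text are differences or levels on the log2 scale unless said otherwise. With 2 samples a group, p-values measure the spread between these samples, which may be technical.

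Named were up to 6 called members per complex and direction, a fixed list of isoforms and the most changed gene of each pathway list in each direction; any other gene was picked after its values were seen. The members and lists were chosen with earlier results of these data known. In simulated data 100 of the 23570 genes were changed by 1 and 100 by 0.5 on the log2 scale. The wildtype LPS fit recovered 69% and 0% of these with 4 false calls. The ratio fit after LPS recovered 100% and 75% with 17 false calls. In the data 40.9% of genes were called for LPS in wildtype cells, far more than were changed in the simulation. The adjusted threshold was therefore harder to pass in the simulation, and its rates do not give the power of the LPS fit in the data. All arrays share 1 slide and 1 scan, so no such block could be fitted. Alternatives are given in the closing section.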

Additional observations from a re-analysis of the deposited data

Results flagged for a closer look

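For 2 genes of the pathway lists the test of the difference in knockout effect between LPS and basal conditions passed the threshold. For Ppargc1a, a coactivator of mitochondrial biogenesis, the fit gave 0.81 (SE 0.105, limma adjusted p = 0.0451), but all its wildtype signals lay too near background to be measured, so each ratio is a bound and this value and its p show no difference. It came from log2 signals of 5.93, 5.97, 6.10 and 6.07 in wildtype and 6.46, 6.36, 7.43 and 7.28 in knockout cells on the basal and then the LPS arrays. Another probe gave -0.20, the mean over probes gave 0.3, the processed signals, with the brightest probe chosen anew, gave -0.32, the authors' deposited value table gave 2.1 (adjusted p = 0.0705), and without 1 array at a time the values were 0.74 to 0.88 with adjusted p from 0.0449 to 0.298. For Ttc19, a factor that maintains complex III, the brightest probe gave -0.75 (SE 0.1, adjusted p = 0.0498), from log2 ratios of 0.07 and 0.19 on the basal and -0.66 and -0.59 on the LPS arrays. Its other probes gave 0.07 and -0.30, the mean over probes -0.33, and leaving out 1 array at a time -0.81 to -0.69 with adjusted p from 0.0551 to 0.32.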

How the results depend on the processing

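Signal over background limits Ndufa4l2 and Ppargc1a, which lie close to it. The members called after LPS numbered 19 in wildtype and 24 in knockout cells with the scanner's processed signals and 21 and 8 with the 75th percentile, where the medians were 0.12 and -0.01. Knockout against wildtype gave 37 calls (median 0.36) under basal conditions and 21 (median 0.24) after LPS with median centring, 1 after LPS with processed signals or the authors' value table, and 0 under basal conditions with the strict filter or a variance trend. With the replicate number as a block, LPS gave 21 and 28 calls in wildtype and knockout cells. The knockout effect then gave 0 under either condition. Same-numbered arrays did not deviate together (r = -0.19 in wildtype, -0.0824 in knockout cells, -0.161 for the ratios). With 2 arrays per condition this cannot exclude that the numbers mark shared animals or cultures. Crossed pairs, chosen after seeing the data, gave 2 and 11 calls for the knockout effect. Without 1 array at a time the LPS calls ran from 6 to 26 in wildtype and from 1 to 42 in knockout cells, with wildtype medians from -0.37 to -0.35, and the knockout calls were 0 under basal conditions and 0 to 6 after LPS. With the 75th percentile 16 of the 38 wildtype and 13 of the 46 knockout members called lower had values above 0, among them 9 and 3 of complex I (up to 0.19 and 0.16). Of the genes named by the rule, directions then turned in wildtype cells for Atp5a1 (0.15), Atp5g2 (0.07), Atp5j2 (0.19), Atp5mpl (0.18), Uqcr10 (0.12), Uqcrc2 (0) and Uqcrq (0.12). In knockout cells they turned for Atp5j2 (0.03), Atp5mpl (0.02), Cox7a2l (0.05), Cox7c (0.18), Cox8a (0.17) and Uqcrb (0.2). In wildtype cells the median of all genes moved from 0 to 0.37 and that of the members from -0.38 to 0.12. In knockout cells these medians moved from -0.01 to 0.35 and from -0.48 to -0.01. Directions also turned with the mean over probes for Bcs1l (-0.09 in wildtype and -0.25 in knockout cells). With median centring after LPS they turned for Atp5c1 (0.08), Ndufa13 (0.27) and Ndufb7 (0.1), and with processed signals for the difference of Ppargc1a (-0.32). The cause of these shifts was not tested.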
